A study of Rattus norvegicus with 8 samples.

Results

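T-type calcium channels and HCN channels are the ion channels behind burst firing in the thalamus, and 6 of their genes were followed here in the medial thalamus of anaesthetised rats: Cacna1g, Cacna1h, Cacna1i, Hcn2, Hcn3 and Hcn4. All array probes outside controls whose design name is one of these genes were taken, which gave 10 of the 41012 probes on the array. The tissue came from 4 male Sprague-Dawley rats with intermittent tracheal occlusion and from 4 surgical control rats of the same sex and strain. All 8 rats were under urethane and carried an inflatable cuff on the trachea. In the occlusion group the cuff blocked 2 to 4 breaths at a time, with at least 15 breaths between blocks, over 10 min, and the brain was taken directly afterwards. In the control group the cuff stayed deflated and the brain was taken 70 min after setup. No such interval was found in the labels for the occluded rats, so effects of occlusion and of the length of anaesthesia cannot be told apart. Each animal was hybridised in Cy5 on 1 array against a Cy3 pool of all 8 animals, without a dye swap, and every ratio below is log2 of Cy5 over Cy3, the animal over the pool. A dye bias of a probe shifts all 8 ratios alike and drops out of a difference between groups.

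T-type channels open at small depolarisations once a preceding hyperpolarisation has released them from inactivation, and the calcium spike that follows carries a burst of sodium spikes. HCN channels open on hyperpolarisation, are helped by cyclic AMP, and carry an inward current that brings the membrane back towards the T-type threshold. In thalamic neurons the interplay of both currents supports the rhythms of sleep and anaesthesia, while depolarised relay neurons fire single spikes. Cacna1g encodes the main T-type pore subunit of thalamic relay neurons in rodents, and Cacna1h and Cacna1i encode those of reticular thalamic neurons. Hcn2 and Hcn4 are the main thalamic HCN genes, and Hcn3 is expressed at a low level in much of the rodent brain.

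Over the 8 arrays, between 67.4% and 79.6% of probes were well above background in Cy5, and the median ratio of Cy5 signal to local background lay between 3.46 and 4.40. Each of the 2 slides carried 2 occluded and 2 control rats. Control 3 stood apart on region markers. The mean of 7 tested thalamic relay markers was -2.19 in this animal and between -0.28 and 0.27 in the other 7, and the mean of 10 cortical markers was 1.39 in it, whereas the other 7 ranged from -0.82 to -0.27. Such means are over the markers with a value in that animal, and Lum of the meningeal list had none in control 1. The gene for the glutamate transporter of relay terminals, Slc17a6, was at -2.99 in control 3, the relay kinase gene Prkcd at -3.01, and Neurod2, a cortical transcription factor, at 2.60. On these ratios to the pool, the library labelled control 3 was low in relay markers of the labelled tissue, and every group difference of a tested channel probe is given with and without it.

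The 10 probes cover the genes unevenly. In the coordinates of the array files, which name the rn3 build, the Cacna1g probe A_44_P554973 lies at chr10:83058759-83058818 on the minus strand and the Cacna1h probe A_44_P414535 at chr10:14622249-14622308 on the minus strand. The Cacna1i probes A_44_P405083 and A_44_P405084 lie on the plus strand at chr7:118709842-118710877 and chr7:118709818-118710853, with starts 24 bases apart. Their spans are 1036 bases each, of which 1012 overlap, whereas the other probes span 60 bases each. Which bases within its span each Cacna1i probe reads is not given. The Hcn2 probes A_43_P15654 and A_44_P911768 lie at chr7:11485814-11485873 and chr7:11484701-11484760 on the minus strand, with starts 1113 bases apart. The Hcn3 probes A_43_P15414 and A_44_P107352 lie at chr2:181174432-181174491 and chr2:181180277-181180336 on the minus strand, 5845 bases apart. The Hcn4 probes A_44_P327807 and A_44_P465011 lie at chr8:62686228-62686287 and chr8:62669795-62669854 on the plus strand, 16433 bases apart. The files give no exon or transcript region for these positions.

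Of the 10 probes, 9 met the detection filter (Cy5 clearly over local background on 4 or more arrays) and were tested. No probe was saturated or an outlier spot on any array, and each was printed as 1 spot. Hcn2 probe A_44_P911768 was far above its background, with a Cy5 signal 189 to 331 times the local background. For the Cacna1g probe and both Hcn3 probes this ratio ran from 7.73 to 23.6, and for Hcn2 probe A_43_P15654 from 5.71 to 10.3. The Cacna1h probe, at 2.96 to 4.80, Hcn4 probe A_44_P327807, at 2.18 to 5.20, and the Cacna1i probes, at 1.69 to 2.88, were close to background, where the offset of 50 added in background correction pulls ratios towards 0. Signals of different probes are not compared with each other as gene levels, because each probe binds with its own efficiency.

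**Figure D1:**
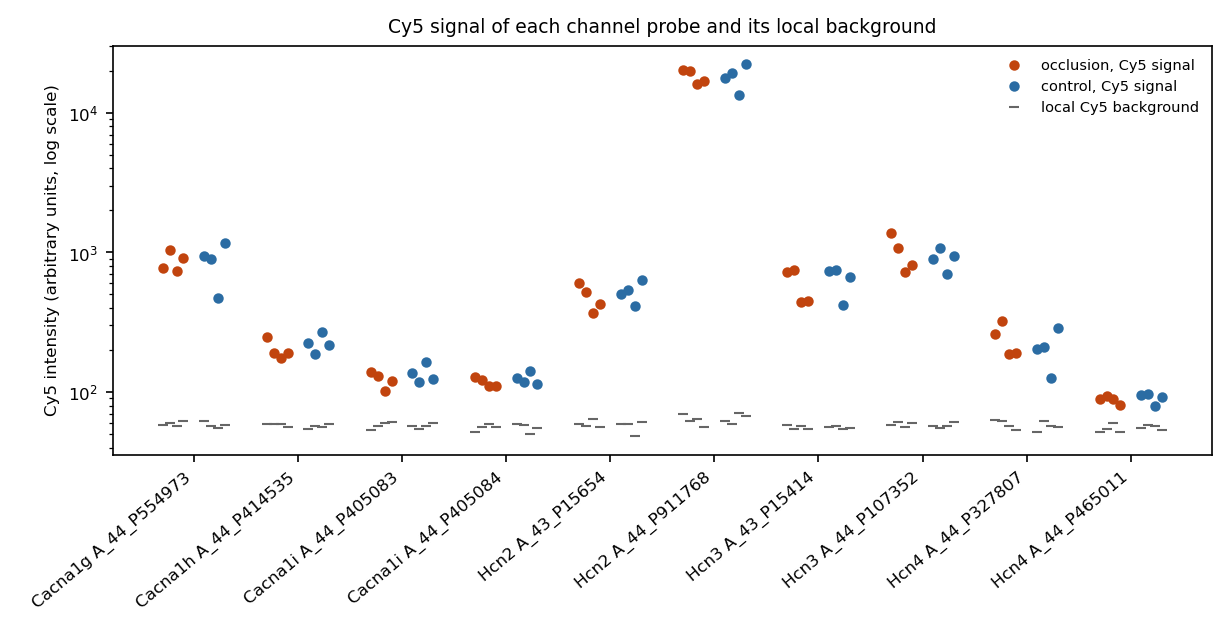
Cy5 signal of each of the 10 channel probes in every animal (vertical axis, arbitrary units on a log scale), with occlusion animals to the left of control animals at each probe and the local background as short grey bars. Hcn2 probe A_44_P911768 lies between 13421 and 22373 units, while both Cacna1i probes and Hcn4 probe A_44_P465011 stay within 3 times their background.

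Setting occluded against control rats addresses whether transcripts of the burst-firing channels differ after repeated brief obstruction of breathing. In limma with Benjamini-Hochberg adjustment over 31690 probes, 0 of the 9 tested channel probes had an adjusted p under 0.05, against 0% of all tested probes, and 0 of the 9 had an unadjusted p under 0.05, against 3.06%. The groups overlapped at all 9 probes, whereas they did not overlap at 2.42% of the tested probes measured on all arrays. Adjusted p-values of the 9 probes lay between 0.977 and 0.993. The differences, occlusion minus control, were positive at 6 probes and negative at 3, against 50.7% positive over all probes. Their median was 0.04 and their median size 0.06 on the log2 scale, where all tested probes had a median of 0.002 and a median size of 0.07.

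**Figure D2:**
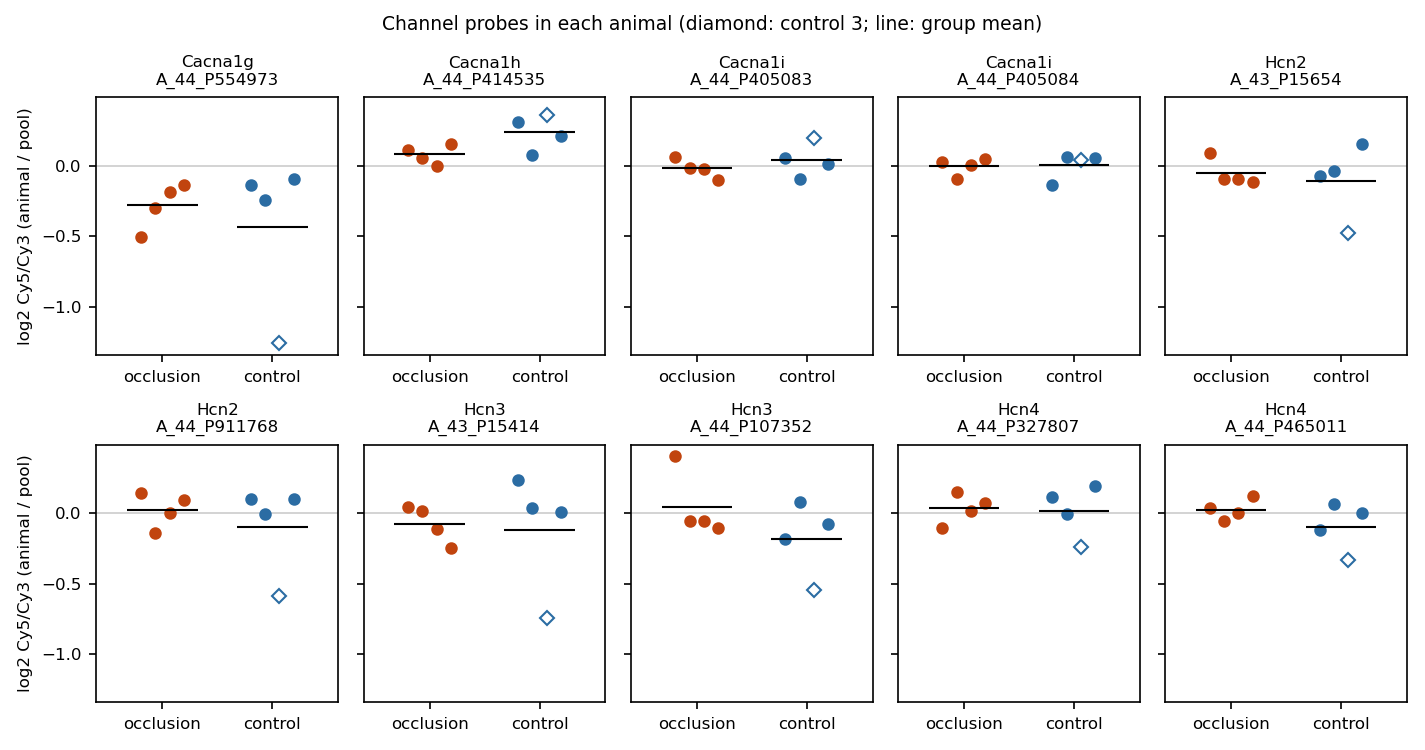
log2 Cy5/Cy3 of the 10 channel probes (vertical axis) in 4 occlusion and 4 control animals, 1 panel per probe, with a line at each group mean and a diamond for control 3. The groups overlap in every panel of a tested probe, and control 3 lies lowest at Cacna1g, at -1.26, and at all 5 tested HCN probes.

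Cacna1g, the T-type subunit of relay neurons, had log2 ratios of -0.50, -0.30, -0.18 and -0.13 in occlusion 1 to 4, against -0.13, -0.24, -1.26 and -0.09 in control 1 to 4. Occlusion 1 was the lowest of the occluded rats, control 3 was far below every other animal, and the remaining 6 ratios lay close together. The underlying Cy5 signals were 770.4, 1040.9, 739.8 and 908.3 units under occlusion and 944.5, 904.2, 472.3 and 1168.7 units in controls, whereas the Cy3 signal of the pool stayed between 587 and 650 units on all arrays. The group means of the log2 ratio were -0.28 ± 0.16 under occlusion and -0.43 ± 0.56 in controls (SD, n = 4 each). The difference was 0.15 with a standard error of 0.25 (limma adjusted p = 0.978, exact permutation p = 0.857), and its 95% interval, from -0.41 to 0.71, spans 0.755-fold to 1.63-fold. Without control 3 the difference was -0.13 with a standard error of 0.10 (adjusted p = 0.932), so its sign rests on 1 animal. It was 0.27 on slide 1, which holds control 3, and 0.03 on slide 2. In bulk tissue, fewer cells of a type and less RNA per cell cannot be told apart.

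A further probe, A_44_P123566, carries the accession AF203698 in place of a gene symbol, and its description in the array files names a partial Cacna1g gene. It lies at chr10:83062162-83062221 (rn3), 3403 bases from the Cacna1g probe, and was not chosen by the naming rule. The log2 ratio of A_44_P123566 was 0.04 ± 0.06 under occlusion and 0.13 ± 0.11 in controls (SD, n = 4 each). Control 3 was at -0.03 here, against -1.26 at the Cacna1g probe, so it was the lowest animal at both positions but by a margin of 0.0064 here and of 0.76 at the Cacna1g probe. The difference between groups was -0.09, and -0.15 without control 3 (limma adjusted p = 0.977 and 0.932).

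Cacna1h, a T-type subunit of reticular thalamic neurons, had log2 ratios of 0.12, 0.06, 0.0014 and 0.15 in occlusion 1 to 4, against 0.31, 0.08, 0.36 and 0.21 in control 1 to 4. Controls 1, 3 and 4 lay above all occluded rats, and control 2 lay among them. The means were 0.08 ± 0.07 under occlusion and 0.24 ± 0.12 in controls (SD, n = 4 each), a difference of -0.16 with a standard error of 0.08. This did not pass (limma adjusted p = 0.977, unadjusted p = 0.0748, exact permutation p = 0.0857). The 95% interval ran from -0.34 to 0.02, or 0.792-fold to 1.01-fold. The difference kept its negative sign under all 20 alternatives, between -0.29 and -0.07. Some of these, a block by slide or replicate number or another choice of probes, leave the estimate unchanged by design. Its sign could not turn there. The difference was -0.12 without control 3, -0.20 on slide 1 and -0.12 on slide 2.

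Cacna1i, the slowly inactivating T-type subunit of reticular neurons, was measured near background by its 2 probes with overlapping spans. At A_44_P405083 the ratios were 0.07, -0.01, -0.02 and -0.10 under occlusion and 0.06, -0.09, 0.20 and 0.01 in controls, with control 3 highest. At A_44_P405084, which was well above background on 7 of 8 arrays, they were 0.03, -0.09, 0.0066 and 0.05 under occlusion and -0.13, 0.07, 0.04 and 0.06 in controls, with control 1 lowest. The differences were -0.06 and -0.01 with standard errors of 0.08 and 0.07 (limma adjusted p = 0.977 and 0.993). The ratios of the 2 probes correlated at -0.15 over the 8 animals. Without control 3 the differences were -0.01 and 0.002, on slide 1 they were -0.08 at both probes, and on slide 2 they were -0.05 and 0.06. On the scanner software's ratios the first was -0.39, outside its interval of -0.24 to 0.11 (limma adjusted p = 0.967).

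Hcn2, the cyclic AMP-sensitive pacemaker subunit most widely expressed in thalamus, has the probe furthest above its background, A_44_P911768. Its other probe, A_43_P15654, lay at only 5.71 to 10.3 times background. At probe A_44_P911768 the log2 ratios were 0.14, -0.14, 0.003 and 0.10 in occlusion 1 to 4, against 0.10, -0.0024, -0.58 and 0.10 in control 1 to 4. All animals but control 3 lay within 0.28 of each other. The means were 0.03 ± 0.12 under occlusion and -0.10 ± 0.33 in controls (SD, n = 4 each), and the difference of 0.12 had a standard error of 0.15 and a 95% interval from -0.23 to 0.47 (limma adjusted p = 0.977). Without control 3 the difference was -0.04, with an interval from -0.23 to 0.15. At probe A_43_P15654 the ratios were 0.09, -0.09, -0.09 and -0.11 under occlusion and -0.07, -0.03, -0.47 and 0.16 in controls. Control 3 was again the lowest, and the difference of 0.05 turned to -0.07 without it (adjusted p = 0.984 and 0.958). On slide 1 and slide 2 the differences were 0.24 and 0.001 at A_44_P911768, and 0.16 and -0.05 at A_43_P15654.

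Hcn3 gave the largest difference among the 9 probes, at A_44_P107352, and its other probe did not show it. The ratios at A_44_P107352 were 0.40, -0.05, -0.05 and -0.11 in occlusion 1 to 4, against -0.19, 0.08, -0.54 and -0.08 in control 1 to 4. Occlusion 1 alone lay above the other occluded rats, which were inside the range of the controls. The means were 0.05 ± 0.24 and -0.18 ± 0.27 in occluded and control rats (SD, n = 4 each), and the difference was 0.23 with a standard error of 0.16 (limma adjusted p = 0.977, exact permutation p = 0.343). It was 0.11 without control 3 and also 0.11 without occlusion 1, so each of these animals moved it by over 1.5 times. At A_43_P15414 the ratios were 0.04, 0.01, -0.11 and -0.25 under occlusion and 0.23, 0.04, -0.75 and 0.01 in controls, which gave a difference of 0.04 with a standard error of 0.19 (adjusted p = 0.992). Without control 3 this probe turned to -0.17, with an interval from -0.39 to 0.05. The slides opposed each other at both probes, with 0.49 on slide 1 and -0.03 on slide 2 at A_44_P107352, and 0.40 on slide 1 and -0.32 on slide 2 at A_43_P15414.

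Hcn4, the slowly activating pacemaker subunit of thalamus and sinus node, had ratios of -0.11, 0.15, 0.02 and 0.07 in occlusion 1 to 4, against 0.12, -0.0023, -0.24 and 0.19 in control 1 to 4, at probe A_44_P327807. The groups covered much the same range, with control 3 lowest. The means were 0.03 ± 0.11 under occlusion and 0.02 ± 0.19 in controls (SD, n = 4 each), and the difference of 0.02 had a standard error of 0.10 and an interval from -0.22 to 0.26 (limma adjusted p = 0.993). Without control 3 it was -0.07, and on slides 1 and 2 it was 0.05 and -0.01. It was 0.12 on the scanner software's ratios and 0.31 on Cy5 alone, the second outside that interval (limma adjusted p = 0.978 and 0.998). The other Hcn4 probe, A_44_P465011, was well above background on 0 of 4 occlusion arrays and 2 of 4 control arrays and was not tested. Its Cy5 signal lay between 79.7 and 96.0 units, over a background of 51.5 to 60.0 units, and no fold is given for it.

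**Figure D3:**
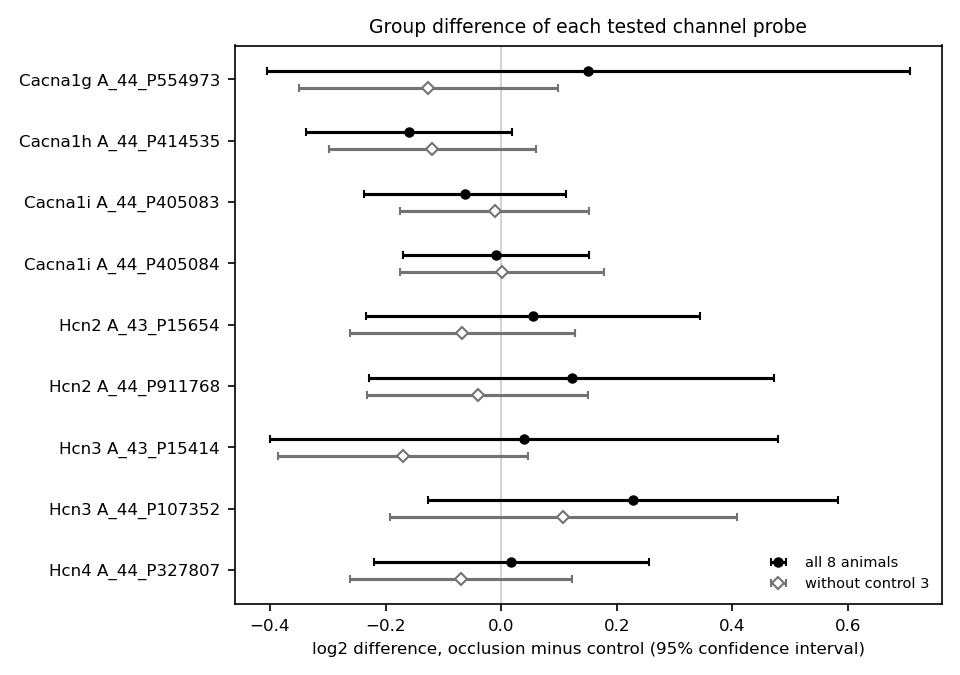
log2 difference, occlusion minus control, with its 95% confidence interval for the 9 tested channel probes, from all 8 animals (filled circles) and without control 3 (open diamonds). All 18 intervals include 0, and the intervals of Cacna1g, both Hcn2 probes and Hcn3 probe A_43_P15414 narrow most without control 3.

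The sign of the group difference depended on control 3 at 6 of the 9 probes, namely Cacna1g, both Hcn2 probes, Hcn3 probe A_43_P15414, Hcn4 and Cacna1i probe A_44_P405084, compared with 21.7% of all tested probes. All 5 tested HCN probes were higher under occlusion with control 3 in the fit, and 4 of the 5 were lower without it, with a median difference of 0.05 and -0.07. Among the T-type probes, 1 of 4 was higher with and without this animal, though not the same probe, with medians of -0.04 and -0.07. Without control 3, adjusted p-values of the 9 probes lay between 0.932 and 0.998 (limma), and 1 probe of all tested, or 0.00316%, passed. An unadjusted p under 0.05 was reached by 0 of the 9, against 4.12% of all.

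Within the control group the channel genes split in control 3. It was the lowest of the 8 animals at 6 of the 9 tested probes, Cacna1g and all 5 HCN probes, and the highest at 2, Cacna1h and Cacna1i probe A_44_P405083. Over all tested probes measured on every array, control 3 was the lowest animal at 24.4% and the highest at 24.3%, while each other animal was the lowest at 8.80% to 15.5%. The gap from control 3 to the next animal was 0.76 for Cacna1g, 0.50 for Hcn3 probe A_43_P15414, 0.44 for Hcn2 probe A_44_P911768 and 0.14 for Hcn4, against ranges of the other 7 animals of 0.41, 0.48, 0.28 and 0.30. The gap was therefore larger than the whole range of the others at Cacna1g, these Hcn2 and Hcn3 probes and Hcn2 probe A_43_P15654 (0.36 against 0.27), and smaller at Hcn4 and at Hcn3 probe A_44_P107352 (0.36 against 0.59). On the high side the gap was smaller than that range at both probes, 0.05 against 0.31 at Cacna1h and 0.13 against 0.16 at Cacna1i probe A_44_P405083. Marker list means also went both ways in control 3. This animal was the lowest for relay (-2.19), choroid plexus and ependyma (-1.39), habenula (-1.29) and oligodendrocyte (-0.52) markers. It was the highest for cortical (1.39), meningeal (0.88) and neuron (0.17) markers. Within the neuron list this animal ran from -0.69 at Tubb3 to 0.92 at Rbfox3. For inhibitory neuron (0.31), astrocyte (-0.03) and microglia (-0.07) markers it lay inside the range of the others. The part of these markers in the split of the channel genes was not tested.

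**Figure D4:**
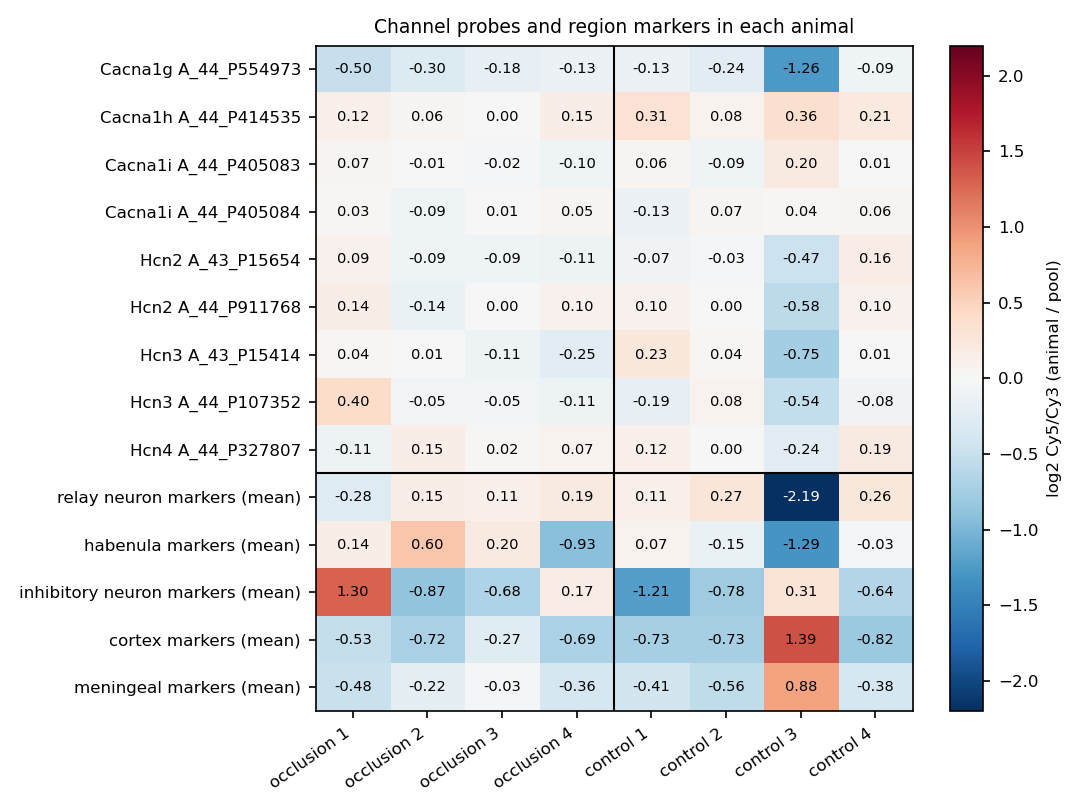
log2 Cy5/Cy3 in each animal (columns, occlusion to the left of control) for the 9 tested channel probes and for the mean of each of 5 marker lists (rows), with the value printed in each cell. Control 3 is low at Cacna1g, the HCN probes and the relay and habenula markers, and high at the cortical and meningeal markers.

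Markers of inhibitory neurons, which include the reticular cells that use Cacna1h and Cacna1i, varied widely between animals of both groups. The mean of the 6 tested markers, of which Ecel1 had no value in occlusion 1 and lay between -0.20 and 0.32 elsewhere, was 1.30, -0.87, -0.68 and 0.17 in the occluded rats (1 to 4), and -1.21, -0.78, 0.31 and -0.64 in the controls (1 to 4). The GABA-synthesising enzyme gene Gad1 was at 1.01 in occlusion 1 and -1.53 in control 1, and the vesicular GABA transporter gene Slc32a1 at 0.94 and -1.42. Cacna1h was at 0.12 in occlusion 1 and 0.31 in control 1, so between these animals its order was opposite to that of both GABA genes. In control 3, however, Cacna1h (0.36) and Gad1 (1.59) were each at their highest, and Slc32a1 was at 0.74. The rest of the list was mixed in control 3. Pvalb (1.42) and Gad2 (0.93) were high there, whereas Spp1 (-2.64) and Ecel1 (-0.20) were each at their lowest. In occlusion 1, Spp1 was the highest member, at 2.59. The 2 Cacna1i probes, near background, were at 0.07 and 0.03 in occlusion 1 and at 0.06 and -0.13 in control 1. The median difference of this list was 0.35, but -9.8e-05 without occlusion 1, 0.05 without control 1 and 0.89 without control 3, and 0 of its 6 tested members passed. The remaining marker lists had 0 members past the threshold, and their median differences were 0.43 for relay, -0.33 for cortical, 0.33 for habenula, -0.13 for meningeal, 0.66 for choroid plexus and ependyma, -0.05 for neuron, 0.16 for astrocyte, 0.09 for oligodendrocyte and 0.005 for microglia markers. An unadjusted p under 0.05 (limma) was reached by 4 of 5 choroid plexus and ependyma markers, all higher under occlusion. The same was true of 1 of 6 astrocyte markers and of 3.06% of all tested probes. Means of the choroid plexus and ependyma list were -0.17, -0.35, 0.73 and -0.50 in occlusion 1 to 4. They were -0.45, -0.80, -1.39 and -0.86 in control 1 to 4, so the groups overlapped. Leaving out occlusion 3, the highest animal, gave this list a median difference of 0.47. The part of these cells in the channel ratios was not tested. Without control 3 the median differences were -0.21 for relay, 0.12 for cortical, -0.03 for habenula and 0.15 for meningeal markers. In the same fit they were 0.51 for choroid plexus and ependyma, 0.02 for neuron and 0.11 for astrocyte markers. Those of oligodendrocyte and microglia markers were 0.02 and -0.007.

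Of 37 further genes that act with these channels, 34 were tested, with 1 probe each, the brightest. None passed (limma, adjusted p at least 0.977), and 0 had an unadjusted p under 0.05, against 3.06% of all tested probes. By sign, 16 were higher and 18 lower, against 50.7% higher over all tested probes, and the median difference was -0.004. Without control 3, 15 changed sign, against 21.7% of all tested probes. Among 8 HCN partners, 5 were higher and 3 lower, with Nedd4l, a ubiquitin ligase of membrane channels, at -0.32 ± 0.18 (SE) and Kcne2, an auxiliary channel subunit, at 0.21 ± 0.13 (SE). Among 8 regulators of T-type channels, 3 were higher and 5 lower, with the kinase gene Rock1 at 0.18. Among 10 genes that end the burst or set the leak conductance, 6 were higher and 4 lower, with the calcium-activated potassium channel gene Kcnn2 at -0.25 and the leak channel gene Kcnk9 at -0.09. Among 8 adenylyl cyclases and phosphodiesterases, which set the cyclic AMP that HCN channels sense, 2 were higher and 6 lower, with Pde10a at -0.21 and Adcy1 at -0.14. Without control 3 Nedd4l was at -0.15, Kcnn2 at -0.11 and Adcy1 at 0.003, while Kcne2 was at 0.23, Rock1 at 0.14, Kcnk9 at -0.06 and Pde10a at -0.27. Control 3 was an extreme here too, lowest at 11 and highest at 13 of the 31 partner genes measured on all arrays. Plcb4, a phospholipase of thalamic relay neurons, was at -2.27 in that animal and between -0.27 and 0.38 in the others measured, and the phosphodiesterase gene Pde1a was at 1.92, against -0.57 to 0.08 elsewhere. Both were named after their values were seen. Stac and Cacna2d4 missed the filter, and Ano2 was not matched to a probe.

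The genes whose log2 ratios followed each member most closely over the 8 animals were found among 17154 named probes, so a high correlation is what the search selects. For Cacna1g these were Gbe1 (Pearson r = 0.998, and 0.989 over the 7 animals without control 3), Dbndd1 (0.993 and 0.976) and Ntng1, a relay marker that the marker list covers by another probe (0.992 and 0.935). For Hcn2 probe A_44_P911768 they were Pcsk6 (0.985 and 0.908), Cracd (0.977 and 0.833) and Qprt (0.976 and 0.816), and for A_43_P15654 Zdbf2 (0.976 and 0.917), Tmem165 (0.969 and 0.887) and Fam98a (0.963 and 0.853). For the Hcn3 probes they were Dact1, Insig1 and Gon4l at A_43_P15414 and Rhog, Slc45a1 and Zfand4 at A_44_P107352, with no gene in common. For Hcn4 they were Tube1, Ogfrl1 and Pdcd10, for Cacna1h Or4k5 and Or7g23, and for the Cacna1i probes Scnn1a, Rnf213 and Carm1 at A_44_P405083 and Arhgef18, Lamb3 and Tbxas1 at A_44_P405084. Between the members themselves, Cacna1g and Hcn2 probe A_44_P911768 correlated at 0.88 over 8 animals and at 0.03 without control 3, and the 2 Hcn3 probes at 0.66 and 0.05. Hcn4 and Cacna1g correlated at 0.87 and 0.73, and the 2 Hcn2 probes at 0.89 and 0.50. The lowest correlations without control 3 were those of Hcn3 probe A_44_P107352, at -0.90 with Cacna1g and -0.81 with Hcn4, against 0.48 and 0.18 over 8 animals. These correlations are descriptions over animals that share the pool and the slides.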

How the data were processed

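RNA of 8 animals was hybridised to 2-colour Agilent rat arrays. Spot values come from Agilent's Feature Extraction software, version 9.5.1.1, per the file headers. Linear spot intensity and a log10 ratio of Cy5 over Cy3 were deposited for each array, and the log10 ratios of the separate deposited value table matched those at all 45018 spots. Here, background correction used normexp (offset 50), within-array loess gave control and outlier spots a weight of 0, and spots of a probe were averaged on the log2 scale. The detection filter (Cy5 clearly over background on 4 or more arrays, and 2 or more values in each group) kept 31690 of 41012 probes. The group comparison used limma 3.58.1 (R 4.3.3, lmFit and eBayes, two-sided, Benjamini-Hochberg over all tested probes), and per probe by exact two-sided permutation over 70 assignments, where the smallest possible p is 0.0286. The fit was tested on simulated data. Members were taken by the array's gene name, and other genes were named through RefSeq's GRCr8 gene table, used for names only, which named 21176 of the 41012 probes. Named partner genes have the 2 smallest unadjusted p of each list, and likeness takes the 3 highest correlations. Members and lists were chosen with earlier results of these data known. Plcb4, Pde1a and AF203698 were added by name after their values were seen. Some genes that these rules pick are not reported here. Figures used matplotlib 3.10.9. With 4 animals per group, the precision is limited.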

Additional observations from a re-analysis of the deposited data

Results flagged for a closer look

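Values far from the other 3 of their group, relative to the range of the 4, were looked for in 50 checks of the channel probes, AF203698 and the marker and partner list means, and 10 were found, 7 of them in control 3. Chance gives about 1 in 20, or 2.5, and these checks share animals. In control 3 they were -1.26 for Cacna1g, -0.58 for Hcn2 probe A_44_P911768 and -0.027 for AF203698. The list means of control 3 so marked were -2.19 for relay, 1.39 for cortical, -1.29 for habenula and 0.88 for meningeal markers. Occlusion 1 stood apart at 0.092 for Hcn2 probe A_43_P15654 and at 0.40 for Hcn3 probe A_44_P107352. Control 1 was at -0.13 for Cacna1i probe A_44_P405084.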

How the results depend on the processing

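The number of probes called was 0 in every setting tried except without control 3, where it was 1 (Bcl3), so leaving out each animal gave 0 to 1. At an unadjusted p under 0.05 the split was 574 higher and 395 lower, against 255 and 70 after median centring and 422 and 714 on the scanner software's ratios. No channel probe passed under any alternative, where the smallest adjusted p was 0.863. Of 176 values of the 9 probes under alternatives, 26 changed sign. The 176 include settings with a block or another choice of probes, which leave each estimate unchanged and could not change its sign. On slide 2 alone the reversed differences were -0.317 and -0.029 for Hcn3 probes A_43_P15414 and A_44_P107352, -0.050 for Hcn2 probe A_43_P15654, -0.012 for Hcn4 and 0.062 for Cacna1i probe A_44_P405084. With array weights they were -0.082 for Hcn3 probe A_43_P15414, -0.077 and -0.015 for Hcn2 probes A_43_P15654 and A_44_P911768, -0.043 for Hcn4 and -0.048 for Cacna1g. Without background correction Hcn3 probe A_43_P15414 was at -0.014 and Cacna1i probe A_44_P405084 at 0.0053, on the scanner software's ratios Hcn3 probe A_43_P15414 was at -0.017 and Hcn2 probe A_43_P15654 at -0.039, and on Cy5 alone they were at -0.034 and -0.030. The cause of these turns was not tested. Leaving out each animal in turn gave -0.13 to 0.26 for Cacna1g, -0.21 to -0.12 for Cacna1h, -0.11 to -0.011 and -0.057 to 0.021 for Cacna1i probes A_44_P405083 and A_44_P405084, -0.067 to 0.14 and -0.041 to 0.19 for Hcn2 probes A_43_P15654 and A_44_P911768, -0.17 to 0.16 and 0.11 to 0.32 for Hcn3 probes A_43_P15414 and A_44_P107352, and -0.069 to 0.076 for Hcn4. On the scanner software's ratios Cacna1i probe A_44_P405083 was at -0.39. Replicate numbers did not pair the animals: same-numbered animals correlated between -0.13 and 0.13, and 1 of 8 correlated best with its own number. With replicate number as a block, 0 probes were called, and Cacna1g and Cacna1h had limma adjusted p of 0.997. The differences of the channel probes were as in the main comparison, with 0.15 for Cacna1g and -0.16 for Cacna1h. The design fixes these differences, as each number holds an occluded and a control rat. Cacna1h, Cacna1i, Hcn4 and AF203698 lie close to background, which limits the size of difference their ratios can show.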
